A study of Brassica oleracea with 12 samples.

Results

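The white center of leaves at the variegated leaf stage (S3_C) was compared with leaves at the albino stage (S2) in the ornamental kale (*Brassica oleracea* var. *acephala*) line 'JC007-2B'. All genes above 0 FPKM (fragments assigned to a gene, scaled by its length and by the size of the library) in at least 1 of these 6 libraries were taken, which gave 43059 of the 45325 genes in the table. The study calls S2 the albino stage and reports that chlorophyll and carotenoid contents were lowest at S2 and higher again at the variegated leaf stage. The comparison therefore runs from a stage that is already low in pigment to a finished white center. S2 samples were leaf blades with the veins removed, at the stage when the center turns white and the margin is still green, so they include green margin tissue. S3_C samples were cut from the center of leaves with a finished white center, and their label does not mention removal of veins. Stage and portion of the leaf therefore differ together and cannot be told apart. S1 (entirely green leaves, veins removed) and S3_S (the green margin of the leaves that gave S3_C) are used only as reference levels. Each of the 4 groups has 3 libraries of the same line, with no other treatment named in the labels. The labels do not say whether the S1 and S2 libraries came from separate plants, so p-values refer to the spread between libraries. In limma the variance of each gene is also drawn toward a trend across genes. The limma p-values and the SE of log2 fold changes are therefore moderated, and do not measure the spread of the 6 values alone.

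A leaf turns green when nuclear genes for the photosystems, the light-harvesting proteins and the Calvin cycle are expressed together with those for chlorophyll synthesis and plastid ribosomes. In variegated plants such as the *immutans* and *var2* mutants of *Arabidopsis*, white sectors hold plastids without normal thylakoids, and plastid signals lower the expression of nuclear photosynthesis genes. Many of these genes exist in several copies in *B. oleracea*, whose ancestor had a triplicated genome, so copies of a gene can be followed separately. In bulk tissue, fewer cells of a type and less RNA per cell cannot be told apart.

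The S2 libraries differed more among themselves than the S3_C libraries did. Across 25564 genes whose mean reached 1 FPKM, Pearson's r of log2(FPKM + 1) between libraries was 0.76 to 0.85 within S2 and 0.873 to 0.939 within S3_C. S2 replicate 3 was closer to the S3_C libraries (0.878 to 0.909) than to the other S2 libraries (0.76 and 0.839). It was about as close to the green margin libraries of S3_S (0.881 to 0.885). S2 replicate 2 was at 0.687 to 0.80 with S3_C and at 0.784 to 0.876 with S1. These values are across genes, which are not independent replicates. Summed FPKM lay between 430937 and 459300 in the 6 libraries, and the relative depth read from the steps of low values lay between 0.904 and 1.2 with S2 replicate 1 at 1. Read counts were not used here, so the precision of single values is unknown. List counts that moved when S2 replicates 2 or 3 were left out are given beside many, but not all, of the lists below.

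**Figure D1:**
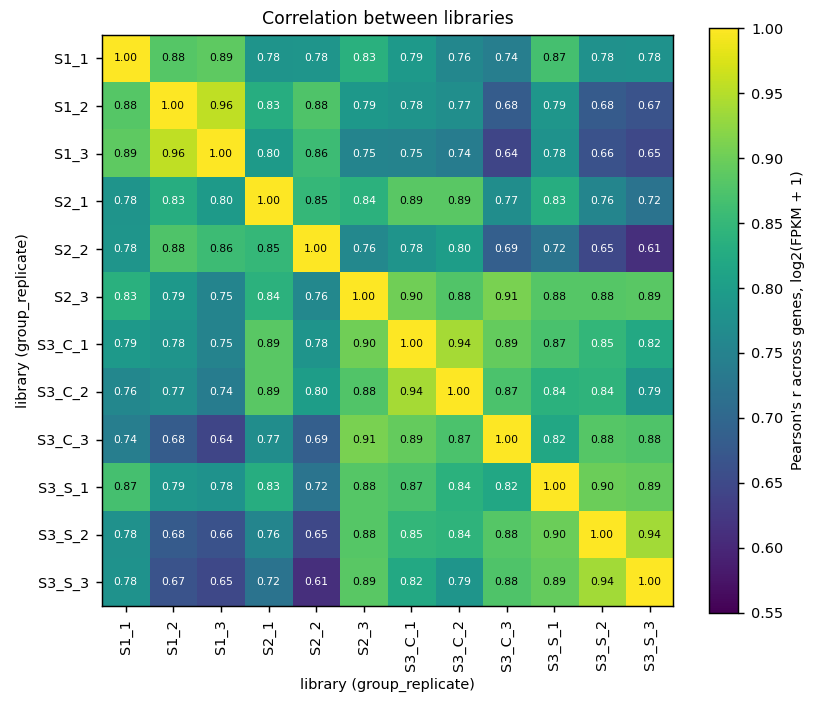
Pearson's r of log2(FPKM + 1) across 25564 genes for each pair of the 12 libraries, with libraries named by group and replicate and colour giving r. S2 replicate 3 lies at 0.878 to 0.909 with the S3_C libraries, at 0.881 to 0.885 with the S3_S libraries and at 0.76 with S2 replicate 2.

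In total, 898 genes (2.09% of those tested) passed the threshold in limma on log2(FPKM + 1), which asks for a log2 fold change beyond 1 in either direction and p below 0.05 before adjustment. Of these, 606 (1.41%) were higher and 292 (0.678%) were lower in S3_C. Both shares are the background for the list counts below. After Benjamini-Hochberg adjustment in limma, 2 genes (0.00464%) had a p under 0.05, and 3272 genes had an unadjusted p under 0.05. All 3 S3_C values lay above all 3 S2 values in 10.6% of the genes and below them in 3.65%. The fit with the replicate number as a block gave 1536 genes past the threshold, 954 higher and 582 lower, and 0 genes with an adjusted p under 0.05 in limma, with 5537 genes at an unadjusted p under 0.05. The share of higher genes depended on the scaling. It was 67.5% on the deposited scale, 48.5% when libraries were scaled by median of ratios and 52.8% under quantile normalization, and the median log2 fold change of the 25564 expressed genes moved from 0.139 to -0.009 and 0.025. The count also depended on the S2 libraries, with 536 genes without S2 replicate 2 (277 higher) and 3253 without S2 replicate 3 (2092 higher).

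**Figure D2:**
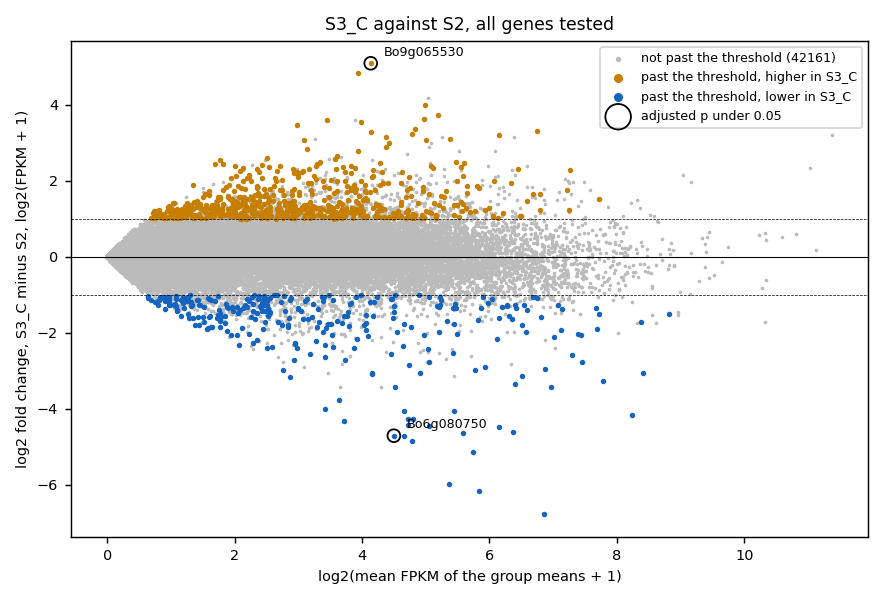
Log2 fold change (S3_C minus S2, on log2(FPKM + 1)) against mean level for the 43059 genes tested, with the 606 higher and 292 lower genes coloured and the 2 genes with an adjusted p under 0.05 circled. The most negative changes reach -6.77 and the most positive reach 5.09.

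The 2 genes that passed the adjustment changed almost from off to on and from on to off. Bo9g065530 was listed at 0 in the 3 S2 libraries and at 32.3, 28.7 and 38.6 FPKM in S3_C (limma adjusted p = 0.0138). It was also listed at 0 in all S1 libraries and in S3_S replicates 1 and 2, and at 16.6 FPKM in S3_S replicate 3. Bo6g080750 was at 41.9, 36.3 and 49.5 FPKM in S2 and at 0.653, 0.995 and 0.354 FPKM in S3_C, a log2 fold change of -4.71 ± 0.23 (SE, limma adjusted p = 0.0186). It averaged 0.493 FPKM in S1 and 0.228 FPKM in S3_S, so of the 4 groups S2 alone stood high. Neither gene carries a description in the table. Bo6g080750 is an assembled locus that carries this name but lists no reference transcript, so it may not be the reference gene. The call of both genes at the adjusted threshold was lost when any of the 6 libraries was left out, but their unadjusted calls remained.

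Few genes were switched this fully. With at least 10 FPKM in each S2 library and under 1 FPKM in each S3_C library there were 6 genes, namely Bo5g155090, *CA2* (Bo2g012160), Bo6g080750, Bo8g082410, Bo8g089540 and Bo8g106910. In the other direction there were 2, Bo9g065530 and Bo4g194420. Both levels were chosen after values had been seen, and these counts are a description. Of the 6 genes, 3 were also at 10 FPKM or more in each S3_S library. Bo8g106910, annotated as a GDA1/CD39 nucleoside phosphatase, was at 22.5, 199 and 114 FPKM in S2 and at 0.268, 0.0224 and 0.142 FPKM in S3_C (log2 fold change -6.16 ± 0.78, SE, limma adjusted p = 0.363). Bo8g082410 was at 133, 19 and 90 FPKM in S2 and listed at 0 in S3_C, and the assembly carries that name on more than 1 gene. Bo4g194420, an unknown protein whose name also stands on more than 1 gene, was listed at 0 in S2 and at 22.2, 22.5 and 41.7 FPKM in S3_C. Among the other genes that rose most, Bo5g127100 went from 38.2, 6.09 and 25.1 FPKM to 182, 197 and 190 FPKM (3.30 ± 0.63, SE, limma adjusted p = 0.593), and Bo1g115950 from 9.08, 0.323 and 2.02 FPKM to 72.8, 72.8 and 27.9 FPKM (3.98 ± 0.80, SE, limma adjusted p = 0.60). The 3 libraries of each group did not overlap in any of these genes, which the rule for naming them or the chosen levels required. Bo1g115950 is an assembled locus that carries this name but lists no reference transcript.

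Genes for Rubisco, which fixes CO2 in the Calvin cycle, were lower in S3_C in several copies. Of the 8 genes annotated with ribulose-bisphosphate carboxylase activity, 4 fell past the threshold and 0 rose, beside 0.678% and 1.41% of all genes. This list was chosen after values had been seen. The small chain copy Bo6g059930 was at 42.5, 84.5 and 59.6 FPKM in S2 and at 2.17, 3.25 and 0.589 FPKM in S3_C (log2 fold change -4.45 ± 0.44, SE, limma adjusted p = 0.236). The merged locus Bo4g137140;Bo4g137150 fell from 131, 116 and 227 FPKM to 8.18, 7.19 and 2.24 FPKM (-4.60 ± 0.48, SE). The groups were far apart in both, though the rule that named these loci required groups that do not overlap. Bo4g144000 fell from 214, 198 and 388 FPKM to 53.8, 60.9 and 22.0 FPKM (-2.58 ± 0.49, SE). Bo7g080710 fell from 1.39, 14.6 and 4.79 FPKM to 0.537, 0.459 and 0.429 FPKM (-2.03 ± 0.68, SE), a call that was lost without S2 replicate 3 or any of the S3_C libraries. The most abundant copy did not pass. Bo4g137200 was at 1497, 1007 and 2313 FPKM in S2 and at 1087, 774 and 746 FPKM in S3_C (-0.82 ± 1.32, SE, limma adjusted p = 0.805), and the groups overlapped. Summed over the 8 genes, FPKM were 2100 ± 808 in S2 and 923 ± 202 in S3_C (SD, n = 3, exact two-sided permutation p = 0.1, the smallest that 3 against 3 allows). In the green groups the sums were 12368 ± 8090 (S1) and 8121 ± 4420 (S3_S). Reads could align to several places, so copies that are nearly identical are uncertain as single genes.

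Of 20 genes for carbonic anhydrases, which interconvert CO2 and bicarbonate, 3 fell past the threshold and 0 rose, beside 0.678% and 1.41% of all genes. The median log2 fold change was -0.04. Without S2 replicate 3, 3 fell and 1 rose. Bo5g155090, annotated as chloroplast beta carbonic anhydrase 1, had the most negative log2 fold change among the genes past the threshold. It was at 126, 72.9 and 490 FPKM in S2 and at 0.497, 0.447 and 0.649 FPKM in S3_C (log2 fold change -6.77 ± 0.68, SE, limma adjusted p = 0.25). *CA2* (Bo2g012160) fell from 40.5, 21.4 and 95.0 FPKM to 0.365, 0.571 and 0.776 FPKM (-4.84 ± 0.53, SE), and Bo1g158950 fell from 16.4, 9.49 and 31.6 FPKM to 0.32, 0.0279 and 0.0655 FPKM (-4.0 ± 0.45, SE). In the 3 genes every S3_C library was below 1 FPKM, and leaving out any library kept the call. Their means in the green margin were 1219, 295 and 110 FPKM. The other 17 of the 20 genes annotated with carbonate dehydratase activity, a list chosen after values had been seen, did not pass. Among them, Bo2g068140 was at 79.0, 11.9 and 22.6 FPKM in S2 and at 38.3, 39.2 and 13.7 FPKM in S3_C (-0.02 ± 0.76, SE), and Bo3g170630, a homologue of beta carbonic anhydrase 5, was at 5.36, 6.52 and 3.73 FPKM and at 5.04, 6.52 and 3.72 FPKM (-0.03 ± 0.29, SE).

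Photosystem genes had a median change below that of all genes with all 6 libraries, and single copies were lower in S3_C. Of the 35 measured genes of the photosynthesis pathway, 4 fell past the threshold and 0 rose, beside 0.678% and 1.41% of all genes. Without S2 replicate 3, 3 fell and 2 rose, and without S2 replicate 2, 5 fell and 0 rose. With all 6 libraries the median log2 fold change was -0.10 against 0.031 over all genes tested. For members whose mean reached 1 FPKM it was -0.12, against 0.139 over all such genes. With median-of-ratios scaling 6 fell and the median was -0.29, against -0.007 over all genes tested. The 4 included Bo9g017950, which encodes the photosystem I subunit PsaN and went from 6.76, 3.93 and 17.2 FPKM to 0.40, 1.02 and 0.778 FPKM (-2.37 ± 0.52, SE, limma adjusted p = 0.631). The other *PsaN* copy, Bo3g102750, was at 53.5, 34.7 and 152 FPKM in S2 and at 64.8, 60.2 and 60.3 FPKM in S3_C (-0.09 ± 0.54, SE). Only the first copy separated the groups. Bo1g158910, encoding PsbQ of the oxygen-evolving complex, was at 1.27, 1.15 and 11.8 FPKM in S2 and at 0.0337, 0.117 and 0.145 FPKM in S3_C (-1.86 ± 0.72, SE), and this call was lost without any S3_C library. The *PsbQ* locus Bo1g024030 had a log2 fold change of 0.13 and did not pass. A merged *PsbQ* locus that includes Bo5g019300 did not pass either, but its groups did not overlap. It was at 0.0237, 1.69 and 4.11 FPKM in S2 and at 0, 0.00544 and 0 FPKM in S3_C (-1.27 ± 0.56, SE). Bo8g106990, with the same annotation, was under 1 FPKM in every library of both groups (0.14 ± 0.08, SE). The *PsbS* genes, needed for the dissipation of excess light, fell in both copies. Bo8g021860 went from 33.5, 36.6 and 52.2 FPKM to 8.99, 5.45 and 7.25 FPKM (-2.34 ± 0.25, SE, limma adjusted p = 0.279), and Bo6g003410 from 71.5, 80.3 and 119 FPKM to 39.9, 42.2 and 38.3 FPKM (-1.12 ± 0.24, SE), the latter call being lost without S2 replicate 3. Bo6g033160, annotated to photosystem I, fell from 21.1, 23.3 and 133 FPKM to 6.55, 5.11 and 3.81 FPKM (-2.78 ± 0.72, SE).

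**Figure D3:**
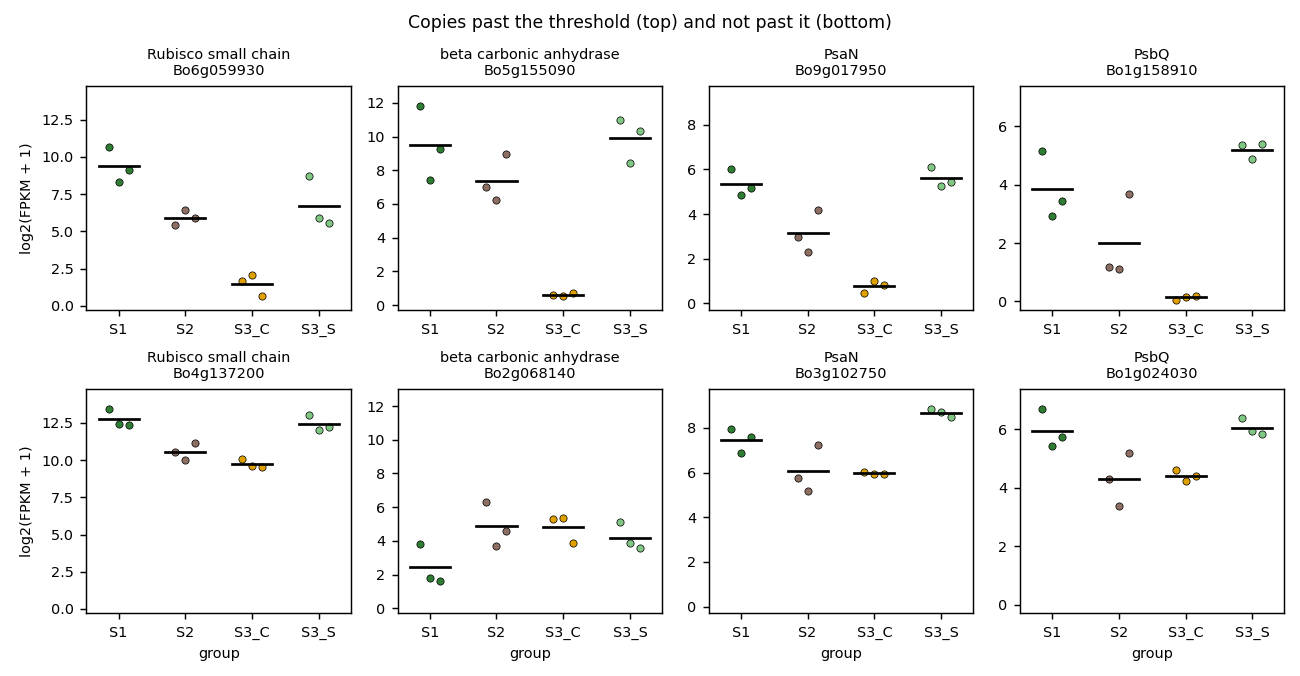
Log2(FPKM + 1) in each library (points) and group mean (lines) for copies of 4 gene families in S1, S2, S3_C and S3_S, with copies past the threshold in the top row and copies not past it in the bottom row, all chosen after values had been seen. In the top row the S3_C points lie below all S2 points, and in the bottom row S2 and S3_C overlap.

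Light-harvesting genes showed a single call with all 6 libraries. Of the 17 antenna protein genes, 1 fell past the threshold and 0 rose, beside 0.678% and 1.41% of all genes, with a median of 0.07. That gene was *LHCA6* (Bo8g068320), at 11.1, 6.89 and 23.7 FPKM in S2 and at 7.04, 3.46 and 4.84 FPKM in S3_C (-1.17 ± 0.47, SE), where the groups overlapped. *LHCA4* (Bo3g134510), an antenna protein of photosystem I, was at 259, 268 and 836 FPKM in S2 and at 452, 395 and 497 FPKM in S3_C (0.20 ± 0.70, SE). S2 replicate 3 was above all other libraries of the comparison here, as it was in the sums. Summed FPKM of the antenna genes were 1430, 1102 and 4561 in S2 and 2031, 1838 and 2564 in S3_C (exact two-sided permutation p = 1.0), and those of the photosynthesis pathway were 1169, 951 and 2658 in S2 and 1293, 1082 and 1377 in S3_C (exact p = 0.90). The green groups averaged 5321 (S1) and 10634 (S3_S) for the antenna genes. Without S2 replicate 3 the medians were 0.64 for the antenna list and 0.14 for the photosynthesis list, and without S2 replicate 2 they were -0.41 and -0.45. In the antenna list, 0 fell and 1 rose without S2 replicate 3, and 1 fell and 0 rose without S2 replicate 2. The direction of both lists therefore depended on which S2 library was included. Of the 16 genes found for the photosynthesis genes that the study names, a list the study chose with S3_C libraries in its comparison, 2 fell past the threshold, Bo9g017950 and Bo1g158910, and 0 rose.

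Of 77 carbon fixation genes, 4 fell and 1 rose past the threshold, beside 0.678% and 1.41% of all genes, with a median of -0.32. Of the 4, 2 were the Rubisco loci Bo6g059930 and Bo4g137140;Bo4g137150, and the others were *GAPB* and Bo8g090220 (-1.06). Without S2 replicate 3, 9 fell and 1 rose, and without S2 replicate 2, 5 fell and 0 rose. The 4 called genes of the photorespiration list (14 genes, chosen after values had been seen) were the Rubisco genes described above. *GAPB* (Bo8g024290), a subunit of chloroplast glyceraldehyde-3-phosphate dehydrogenase, fell from 88.4, 98.9 and 168 FPKM to 50.7, 35.3 and 31.3 FPKM (-1.55 ± 0.33, SE, limma adjusted p = 0.608). *GDCH* (Bo4g038690), the H protein of glycine decarboxylase in photorespiration, fell from 2.86, 5.16 and 6.84 FPKM to 1.44, 1.31 and 1.12 FPKM (-1.32 ± 0.34, SE). The groups did not overlap in either gene, which was part of the rule for naming them. The transketolase gene Bo8g095470 went the other way, from 27.2, 19.8 and 38.3 FPKM to 71.1, 60.5 and 61.8 FPKM (1.20 ± 0.26, SE), a call that was lost without S2 replicate 2. Over the 775 genes annotated to the chloroplast, 12 fell and 2 rose, beside 0.678% and 1.41% of all genes, with a median of -0.02. Without S2 replicate 3, 26 fell and 24 rose. With the replicate block 12 fell and 6 rose.

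Pigment genes had no call with all 6 libraries. Of 52 genes of porphyrin and chlorophyll metabolism and 25 of carotenoid biosynthesis, 0 passed the threshold, with medians of 0.04 and 0.00. Without S2 replicate 3, 5 of the chlorophyll genes rose and 1 fell, and 1 carotenoid gene fell. Summed FPKM of the chlorophyll list were 706, 734 and 886 in S2 and 812, 731 and 809 in S3_C (exact two-sided permutation p = 0.90), against means of 1495 in S1 and 1330 in S3_S. *GUN5* (Bo3g009280), the subunit of magnesium chelatase that binds the porphyrin, was at 16.5, 11.9 and 40.3 FPKM in S2 and at 24.0, 14.0 and 20 FPKM in S3_C (-0.08 ± 0.47, SE). *PORB* (Bo7g111430), which makes chlorophyllide in the light, had a log2 fold change of 0.10 ± 0.45 (SE). The homologues of the *Arabidopsis* variegation genes *IM* (Bo1g027150, 0.29 ± 0.27, SE) and *VAR2* (a locus merged with Bo4g053780, 0.17 ± 0.42, SE) did not pass either. *PIL5* (Bo7g003890), also called *PIF1*, a phytochrome-interacting repressor of chlorophyll synthesis in *Arabidopsis*, rose from 4.03, 6.28 and 10.0 FPKM to 12.8, 12.9 and 20.1 FPKM (1.11 ± 0.34, SE, limma adjusted p = 0.631), and its call was lost without S2 replicates 1 or 2 or S3_C replicate 3.

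Most ribosomal protein genes had lower values in S3_C, but few passed the threshold. Of 272 genes of the ribosome pathway, 250 had a negative and 22 a positive log2 fold change. The median was -0.64, against 0.031 over all genes tested. In this list 3 fell past the threshold and 0 rose, beside 0.678% and 1.41% of all genes. With the replicate block, 41 fell and 0 rose, where 582 of the 43059 genes tested fell and 954 rose. Summed FPKM were 21211, 35802 and 12626 in S2 and 15360, 15526 and 10401 in S3_C, so S2 replicate 3 lay below 2 of the S3_C libraries (exact two-sided permutation p = 0.30). The median was -0.26 without S2 replicate 2 and -1.01 without S2 replicate 3, where 105 genes fell. Among the 3, Bo5g129020, encoding the large subunit protein L18a, fell from 41.2, 88.4 and 28.3 FPKM to 21.7, 21.3 and 19.5 FPKM (-1.14 ± 0.41, SE), a call that was kept only when S2 replicate 3 was the library left out. Of 143 glycolysis genes (median -0.23), 1 fell, beside 0.678% of all genes. In that list 4 fell under the replicate block, 12 without S2 replicate 3 and 0 without S2 replicate 2. Of 49 DNA replication genes (median -0.26), 1 fell, beside the same share of all genes. Here 11 fell under the replicate block, 17 without S2 replicate 3 and 0 without S2 replicate 2. The called gene was *RPA32B* (Bo1g155060), a single-strand binding subunit, from 6.12, 7.12 and 2.62 FPKM to 2.54, 0.746 and 1.08 FPKM (-1.34 ± 0.45, SE).

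Auxin signaling genes past the threshold were all higher in S3_C. Auxin acts by removing Aux/IAA repressors, which themselves are induced by auxin, and so frees auxin response factors. Of 90 measured genes of the auxin-activated signaling pathway, 9 rose and 0 fell past the threshold, where 1.41% of all genes tested rose. The median was 0.42, against 0.031 over all genes tested and 0.139 over the expressed genes. In 26 of the 90 all S3_C libraries lay above all S2 libraries, beside 10.6% of all genes, and in 0 of them below. With median-of-ratios scaling 6 rose and the median was 0.26, and 3 rose without S2 replicate 2 and 17 without S2 replicate 3. Summed FPKM of the list were 884, 666 and 1018 in S2 and 1225, 1378 and 1360 in S3_C (exact two-sided permutation p = 0.1, the smallest possible). The Aux/IAA gene Bo1g151890 rose from 18.8, 18.0 and 38.3 FPKM to 78.6, 117 and 66.9 FPKM (1.81 ± 0.37, SE, limma adjusted p = 0.60), and leaving out any library kept the call. Bo3g081600 of the same family rose from 40.4, 20.7 and 53.9 FPKM to 95.3, 90.8 and 77 FPKM (1.27 ± 0.37, SE). Bo5g093110 rose from 7.90, 1.90 and 20.5 FPKM to 31.6, 29.3 and 30.1 FPKM (1.93 ± 0.70, SE). The call of Bo3g081600 was lost without S2 replicate 2, and that of Bo5g093110 without S2 replicate 1 or any S3_C library. In these 3 genes the lowest S3_C library was above the highest S2 library, which the rule for naming them required. The auxin response factor Bo2g023110 (1.21 ± 0.43, SE) and the auxin efflux carrier Bo6g094450 (1.02 ± 0.36, SE) also passed, but neither did with the replicate block.

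**Figure D4:**
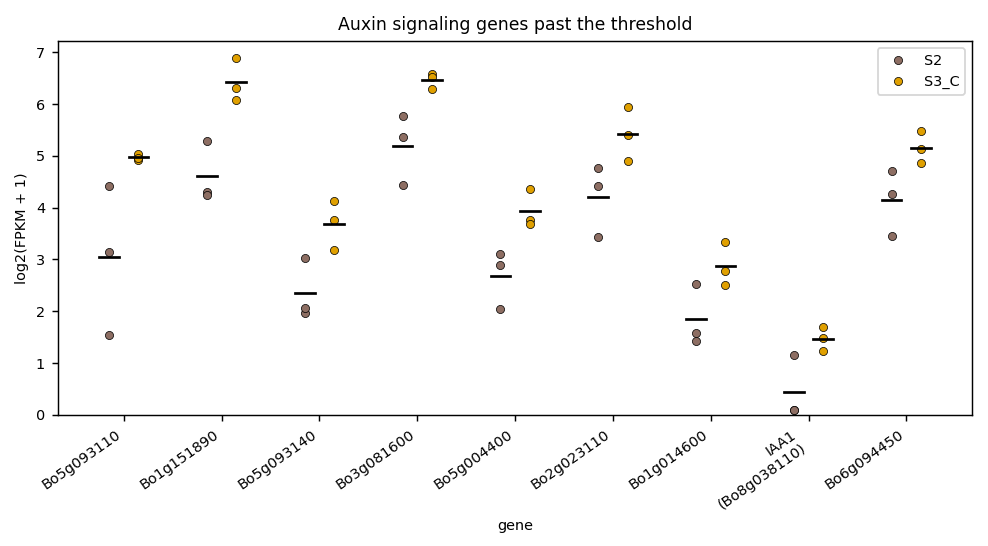
Log2(FPKM + 1) in each S2 and S3_C library (points) with group means (lines) for the 9 auxin signaling genes past the threshold, ordered by log2 fold change from 1.93 to 1.02. The groups do not overlap except in Bo1g014600.

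Hormone genes outside the auxin list had calls in both directions. Of 279 genes of plant hormone signal transduction, which share members with the auxin list, 16 rose and 2 fell, with a median of 0.14. Of all genes tested, 1.41% rose and 0.678% fell. In the list, 24 rose with the replicate block, 10 with median-of-ratios scaling, 6 without S2 replicate 2 and 32 without S2 replicate 3. The cytokinin-activated signaling list of 6 genes had 0 calls, a median of -0.15 and 4 negative values. Among the called genes of the larger list that belong to the cytokinin relay, the phosphotransfer gene Bo5g126170 rose from 2.52, 1.58 and 4.04 FPKM to 11.8, 7.10 and 12.1 FPKM (1.63 ± 0.34, SE), and *AHP4* (Bo3g068370) from 0.695, 1.02 and 1.60 FPKM to 4.66, 2.56 and 4.14 FPKM (1.18 ± 0.32, SE). Neither call was lost when a library was left out. The response regulator Bo1g055180 rose by 1.03 ± 0.27 (SE) and the receptor-type kinase Bo3g085570 by 1.04 ± 0.34 (SE), but neither passed without S2 replicate 2 or with median-of-ratios scaling. The 2 genes that fell carry the annotation of JAZ proteins, the repressors of jasmonate signaling. Bo9g168900 fell from 2.60, 4.31 and 1.68 FPKM to 0.263, 0.213 and 0.151 FPKM (-1.62 ± 0.30, SE), and Bo6g112300 from 25.2, 31.3 and 61.8 FPKM to 14.3, 16.4 and 23.7 FPKM (-1.01 ± 0.38, SE), the latter call being lost without S2 replicates 2 or 3 or S3_C replicates 1 or 2. Of 12 linoleic acid metabolism genes (median -0.27, 5 positive) and 40 alpha-linolenic acid metabolism genes (median 0.06, 24 positive), which include jasmonate synthesis, 2 fell and 0 rose in each, and these were the same lipoxygenase genes. Without S2 replicate 3, 4 fell and 2 rose in the first list and 3 fell and 1 rose in the second. Bo6g079880 went from 77.8, 156 and 460 FPKM to 16.6, 8.65 and 25.4 FPKM (-3.44 ± 0.72, SE, limma adjusted p = 0.60), and Bo6g097400 from 8.42, 56.1 and 10.5 FPKM to 2.83, 1.89 and 2.75 FPKM (-2.41 ± 0.70, SE). Of 23 genes of the response to jasmonic acid (median 0.05), 1 rose and 1 fell, and 2 fell with the replicate block. The gene that rose was *GAMMA-VPE* (Bo1g008620), a vacuolar processing protease, from 16.8, 5.42 and 21.0 FPKM to 104, 33.5 and 95.0 FPKM (2.37 ± 0.63, SE). *CORI3* (Bo1g036850), a coronatine-induced tyrosine transaminase family gene, fell from 51.9, 225 and 219 FPKM to 18.2, 9.08 and 19.2 FPKM (-3.13 ± 0.64, SE).

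Clock genes had a positive median with a single call. Of 40 circadian rhythm genes, 1 rose and 0 fell, beside 1.41% of all genes that rose, and the median was 0.24. In 12 of the 40 all S3_C libraries lay above all S2 libraries, beside 10.6% of all genes. The called gene, Bo5g004560 (1.05 ± 0.42, SE), passed only when S2 replicate 3 was the library left out and did not pass with median-of-ratios scaling. With the replicate block 3 genes rose, without S2 replicate 3 there were 6 and without S2 replicate 2 there were 0. The morning gene *LHY* (Bo5g002760) was at 3.29, 2.17 and 1.83 FPKM in S2 and at 7.56, 4.15 and 5.39 FPKM in S3_C (0.96 ± 0.31, SE, limma adjusted p = 0.631), just under the fold threshold, and *GI* (Bo5g038860) had 0.70 ± 0.26 (SE). The labels give no hour of sampling, and its part in these values was not tested.

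Of 165 phenylpropanoid genes, 8 fell and 2 rose, beside 0.678% and 1.41% of all genes. Without S2 replicate 2, 4 fell and 1 rose, and without S2 replicate 3, 13 fell and 2 rose. The peroxidase gene Bo3g032450 fell from 9.23, 11.3 and 5.38 FPKM to 1.02, 0.615 and 0.681 FPKM (-2.40 ± 0.33, SE, limma adjusted p = 0.45), and the cinnamyl alcohol dehydrogenase gene *ATCAD9* (Bo7g119240) from 141, 221 and 84.6 FPKM to 64.7, 74.0 and 56.5 FPKM (-1.09 ± 0.39, SE). The first call held whichever library was left out, and the second was lost without 5 of the 6. Of 138 defense response genes, 4 fell and 2 rose, beside 0.678% and 1.41% of all genes. In this list 0 rose without S2 replicate 2 and 4 without S2 replicate 3. Bo4g020910 fell from 2.44, 3.72 and 3.02 FPKM to 0.216, 0.14 and 0.108 FPKM (-1.80 ± 0.22, SE). Of 91 glutathione metabolism genes (median -0.02, a list chosen after values had been seen), 2 fell and 1 rose, beside the same shares of all genes. With the replicate block or without S2 replicate 3, 5 fell. The glutathione S-transferase gene Bo4g173610 fell from 211, 243 and 190 FPKM to 27.0, 62.2 and 100 FPKM (-1.93 ± 0.50, SE), and the glutathione peroxidase gene Bo3g025320 from 17.9, 23.5 and 15 FPKM to 6.58, 6.97 and 8.09 FPKM (-1.25 ± 0.21, SE). The glutathione S-transferase gene Bo8g117250 rose from 0.648, 0.131 and 0.623 FPKM to 1.47, 3.05 and 3.03 FPKM (1.25 ± 0.31, SE). Leaving out any library kept these 3 calls. Of 179 cell wall organization genes, 4 rose and 0 fell, beside 1.41% and 0.678% of all genes, while 4 rose and 4 fell with the replicate block or, without S2 replicate 3, 6 rose and 4 fell. Without S2 replicate 2, 2 rose. The genes that rose included the xyloglucan endotransglucosylase genes *XTH7* (Bo7g118760), from 2.48, 1.63 and 5.37 FPKM to 10.8, 11.5 and 10.7 FPKM (1.63 ± 0.35, SE), and Bo7g114380 (2.28 ± 0.75, SE), the latter call being lost without S2 replicates 2 or 3. The list of 35 genes with xyloglucan endotransglucosylase activity had 18 negative and 17 positive values, with 2 rising and, with the replicate block, 2 falling as well. Of 24 leaf senescence genes (median -0.01), 1 rose and 1 fell, beside 1.41% and 0.678% of all genes. The gene that rose was *GAMMA-VPE*. *ALD1* (Bo3g087210) fell from 44.6, 25.2 and 4.86 FPKM to 4.15, 2.07 and 3.83 FPKM (-2.17 ± 0.76, SE), a call that was kept only when S2 replicate 3 was the library left out.

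**Figure D5:**
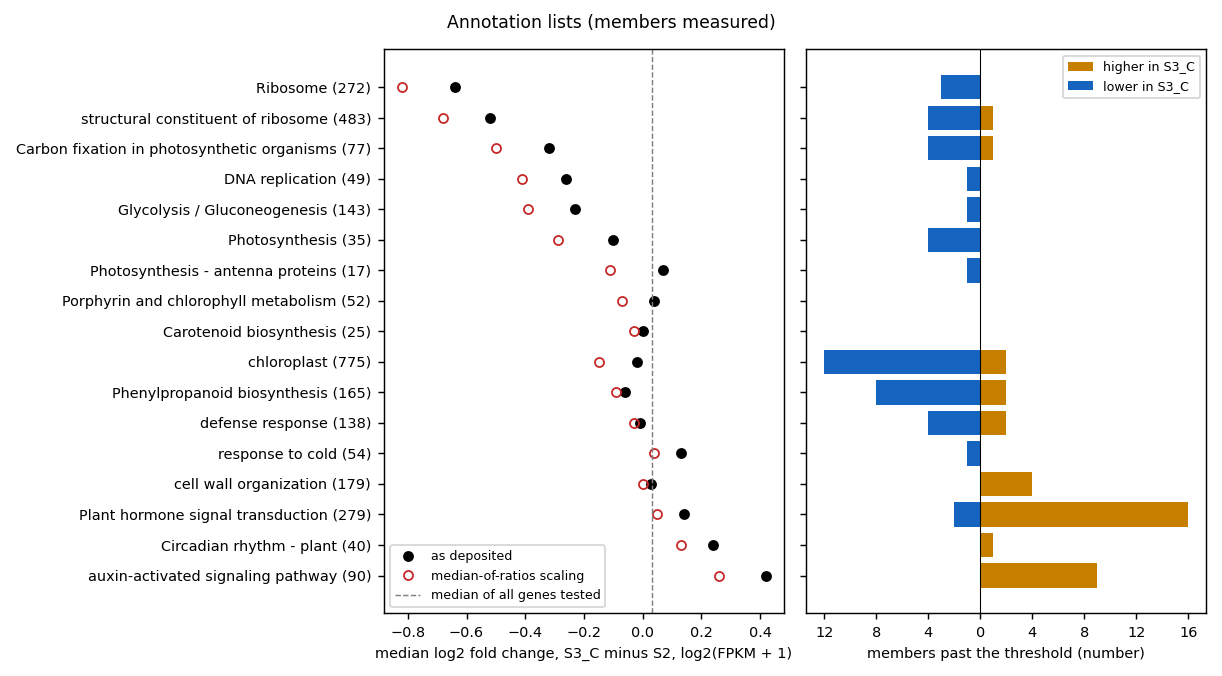
Median log2 fold change (left, S3_C minus S2, deposited scale and median-of-ratios scale) and number of members past the threshold (right) for 17 annotation lists, with measured members in parentheses. The ribosome list has the lowest median (-0.64) and the auxin list the highest (0.42) of those shown.

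The 3 loci named as the candidate genes of the mapped variegation interval did not pass the threshold. Bo3g002070, annotated as REVEILLE 4, was at 7.88, 3.03 and 8.25 FPKM in S2 and at 10.5, 6.29 and 5.91 FPKM in S3_C (0.27 ± 0.40, SE, limma adjusted p = 0.79). Bo3g002080 was at 0.136, 0.143 and 0.158 FPKM in S2 and at 0.121, 0.241 and 0.151 FPKM in S3_C (0.03 ± 0.05, SE), a level at which a change could hardly be seen with a pseudocount of 1. The locus named Bo3g002090 was at 0.175, 1.84 and 0.696 FPKM and at 0.119, 0.674 and 0.0663 FPKM (-0.50 ± 0.36, SE). It is an assembled locus that lists no reference transcript, so these values may not be those of the candidate gene. The groups overlapped in all 3.

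Markers of other cell types were checked because S3_C was cut as a leaf center. Of 10 vein and xylem markers, 4 were found, and their summed FPKM were 7.51 to 12.8 in S2 and 10.5 to 15.5 in S3_C (exact two-sided permutation p = 0.30). The secondary wall cellulose synthases *CESA4* (0.58 ± 0.27, SE) and *CESA8* (0.56 ± 0.28, SE) did not pass, though all S3_C libraries were above all S2 libraries. The groups overlapped in *IRX9* (Bo4g030870, 0.53 ± 0.27, SE) and in *XCP1* (Bo1g006530, -0.07 ± 0.29, SE), which did not pass either. The 1 phloem marker found was at 1.05 to 2.33 FPKM in S2 and at 2.09 to 3.89 FPKM in S3_C, and the 1 epidermis marker at 31.3 to 83.2 and 60.6 to 115 FPKM. Of 4 dividing cell markers, 0 passed, and their sums were 19.5 to 31.9 in S2 and 17.9 to 22.7 in S3_C. In this list 3 log2 fold changes were negative and 1 was positive. The cyclin gene *CYC1* (Bo1g003580) was at 15.4, 17.3 and 14.9 FPKM in S2 and at 15.9, 14.6 and 17.0 FPKM in S3_C (-0.01 ± 0.14, SE). The B-type cyclin-dependent kinase genes *CDC2B* (Bo4g120210, -1.12 ± 0.56, SE) and *CDKB2* (Bo6g120650, -1.01 ± 0.47, SE) did not pass with all 6 libraries, but did with the replicate block and without S2 replicate 3. None of 4 guard cell and 9 green mesophyll markers was matched by identifier or symbol, so the sums of antenna and photosynthesis genes above stand for green tissue. The part of tissue makeup in the results was not tested.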

How the data were processed

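Leaf RNA of 12 libraries (4 groups of 3) was sequenced as poly(A)-selected paired-end libraries. The authors aligned reads with HISAT (HISAT2 2.0 is named in the submitters' processing notes), allowing several alignments per read, assembled and merged transcripts with StringTie 1.3.0, and deposited FPKM per gene. The FPKM deposited by the authors were used as they are. Unmatched columns of values numbered 0.

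Values were tested as log2(FPKM + 1) with limma 3.58.1 (lmFit, eBayes with trend) in R 4.3.3 over 43059 genes above 0 in at least 1 of the 6 libraries. The SE given with log2 fold changes is the moderated SE of this fit. The threshold followed the study (log2 fold change beyond 1 in either direction, p below 0.05 before adjustment). Benjamini-Hochberg adjustment ran over all genes tested, and positive values are higher in S3_C. Fold changes on this scale understate changes of low genes. Summed levels used exact two-sided permutation tests (scipy 1.17.1). The script was tested on simulated data of 43059 genes, drawn independently for each gene, with 200 genes changed by a log2 size of 3. Of these 200, 195 were recovered past the threshold and 128 at an adjusted p under 0.05 in limma. In the same simulation, 570 unchanged genes also passed the threshold. Relative depth was the most common ratio of values under 0.1 FPKM in genes with 1 transcript.

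Replicate numbers come from the sample titles. Deviations from the group means correlated at 0.227, 0.263 and 0.509 in same-numbered S2 and S3_C libraries (25564 genes whose mean reached 1 FPKM), all over 0.1. Among differently numbered pairs, S2 replicate 1 with S3_C replicate 2 was also over 0.1 (0.219), and the others lay from -0.433 to 0.0528. The numbers were taken to pair the libraries, although the titles state no pairing and 0.1 does not single out same-numbered pairs. Block values are given beside counts of calls that they moved by over 1.5 times.

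Named genes were, among genes past the threshold whose groups did not overlap, the 10 largest changes in each direction and up to 4 members per list, with the candidate genes, the photosynthesis genes named by the study and marker genes of at least 1 FPKM. Other members of the Rubisco, carbonic anhydrase, carbon fixation, photosynthesis, hormone, circadian, senescence, glutathione and phenylpropanoid lists were named after their values were seen. The comparison, members and lists were chosen with earlier results of these data known. Lists came from the KEGG and GO terms in the table. Alternatives were a pseudocount of 0.1, a minimum mean of 1 FPKM, quantile normalization, scaling by median of ratios, the replicate block, all 12 libraries in the fit, a linear model with a library-size covariate, and leaving out each library.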

Additional observations from a re-analysis of the deposited data

How the results depend on the processing

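The 898 genes past the threshold became 2192 with a pseudocount of 0.1 FPKM, 1536 with the replicate block and 428 with the library-size covariate, and ranged from 536 to 3253 when a library was left out. The count with an adjusted p under 0.05 in limma was 2, and became 22 with all 12 libraries in the fit, 3 with a pseudocount of 0.1 FPKM or a minimum mean of 1 FPKM, 1 with the covariate, 0 with the replicate block, and 0 whichever library was left out (2276 to 7733 genes at an unadjusted p under 0.05). Of the 898 genes, 844 were also past the threshold with the replicate block, 671 with median-of-ratios scaling and 103 with the covariate. The cause of these differences was not tested.

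Medians that changed sign with the covariate were those of the ribosome (0.10), translation (0.10), ribosome biogenesis (0.65), nucleolus (0.49), cytokinin (0.44), sulfate transport (0.37) and chloroplast regulator (-0.40) lists. Over the fits that left out 1 library, medians ranged from -0.45 to 0.14 for photosynthesis (positive without S2 replicate 3), from -0.44 to 0.20 for linoleic acid (positive without S2 replicate 1), from -0.49 to 0.16 for cytokinin (0.16 without S2 replicate 2, 0.10 without S3_C replicate 3) and from -0.11 to 0.43 for chloroplast regulators (negative without S2 replicate 2). With the covariate, Bo5g004560 was at -0.00, Bo5g082740 at 1.71 and *PORB* at -1.13. Of 114 named genes past the threshold, 63 to 94 stayed past it without a given library, 101 with either scaling, 110 with the replicate block and 25 with the covariate. Sequencing depth limits genes under about 1 FPKM most, and their fold changes are compressed by the pseudocount.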
